A study of Mus musculus with 16 samples.

Results

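The genes described here are 40 genes of endothelial cells, the cells that line blood and lymph vessels, measured in whole mouse thyroid glands as a readout of the blood vessels of the gland. They were chosen by name, as genes of endothelial identity, of the tip cells of growing vessels and of capillaries. The choice was made with earlier results of these data known. All 40 were found among the 25611 entries of the count table, and all 40 were among the 16630 genes with enough counts to be tested. The study compared WT mice with *Glis3*-Pax8Cre mice, on a normal diet (ND) or a low-iodine diet (LID), in 4 groups of 4 female mice. All mice carried the strain label C57BL/6 and an age label of 1 month. They were weaned at 3 weeks and the study's methods give 6 days of diet. WT(ND) and *Glis3*-Pax8Cre(ND) mice ate the NIH-31 chow, while WT(LID) and *Glis3*-Pax8Cre(LID) mice ate the Harlan TD.95125 diet. *Glis3*-Pax8Cre mice carry the alleles labelled Glis3<tm2Amj> and Pax8<tm1.1(cre)Mbu>, so that Cre made under *Pax8* removes exon 5 of *Glis3*, which encodes a zinc finger transcription factor, from follicular cells. Endothelial cells do not express *Pax8* and are not the cells in which the deletion is made, and every value below comes from the whole gland.

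Each thyroid follicle is wrapped in a basket of fenestrated capillaries, across which iodide enters and thyroid hormone leaves. When iodine is scarce, TSH rises and the gland enlarges into a goitre, and new capillaries grow with it. Vessels grow when VEGF made by the follicles acts on its receptors on endothelial cells, of which some become leading tip cells and others follow as the stalk. Endothelial cells hold together through VE-cadherin and PECAM1 and keep their identity through ETS and SOXF transcription factors. Endoglin and nitric oxide synthase take part in their response to flow.

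The libraries held 13892352 to 461077969 counts, and the lowest count of any of the 40 genes in any mouse was 59. Levels are given in CPM, counts scaled to a common library total after TMM normalization, and summaries are the mean ± SD of 4 mice. Differences were tested with edgeR's quasi-likelihood method in 1 fit of the 16 mice, and a gene was called when its Benjamini-Hochberg adjusted p over all genes tested was under 0.05. The p-values measure the spread between these mice. *Glis3* counts over the whole gene do not show the deletion: in CPM, WT(ND) mice ranged from 45.2 to 85.8, *Glis3*-Pax8Cre(ND) mice from 85.8 to 105, WT(LID) mice from 125 to 174 and *Glis3*-Pax8Cre(LID) mice from 119.5 to 204. Thyroglobulin (*Tg*) took between 7.87% and 29.3% of a library. In 5 mice, at least 1 in each group, *Rag1* of immature thymocytes was over 1 CPM, and it reached 1120 CPM in *Glis3*-Pax8Cre(ND) replicate 4. The defining endothelial markers *Pecam1*, *Cdh5*, *Tie1*, *Esam* and *Clec14a* had counts in every mouse.

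The promoters of 4 genes are shown because the results turn on these genes: *Eng* and *Apln* had the largest rises under LID in WT mice, *Tie1* rose with the general endothelial genes and *Esm1* moved the opposite way. Each sequence is the 250 bases before the transcription start on the strand of the gene, from RefSeq on GRCm38.p6, at chr2:32646345-32646594 on the plus strand for *Eng*, chr4:118489850-118490099 on the minus strand for *Tie1*, chrX:48034854-48035103 on the minus strand for *Apln* and chr13:113209409-113209658 on the plus strand for *Esm1*. Capitals mark matches to the ETS core letters GGAAGT or their reverse complement ACTTCC.
Eng: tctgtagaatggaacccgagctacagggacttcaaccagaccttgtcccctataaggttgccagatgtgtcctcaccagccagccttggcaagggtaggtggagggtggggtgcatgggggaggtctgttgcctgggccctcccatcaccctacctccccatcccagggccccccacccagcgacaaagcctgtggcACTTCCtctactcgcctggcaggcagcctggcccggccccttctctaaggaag
Tie1: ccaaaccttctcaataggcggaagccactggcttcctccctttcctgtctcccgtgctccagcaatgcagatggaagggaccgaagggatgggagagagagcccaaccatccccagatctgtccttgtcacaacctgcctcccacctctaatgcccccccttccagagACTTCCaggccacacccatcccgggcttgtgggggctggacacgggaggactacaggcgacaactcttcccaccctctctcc
Apln: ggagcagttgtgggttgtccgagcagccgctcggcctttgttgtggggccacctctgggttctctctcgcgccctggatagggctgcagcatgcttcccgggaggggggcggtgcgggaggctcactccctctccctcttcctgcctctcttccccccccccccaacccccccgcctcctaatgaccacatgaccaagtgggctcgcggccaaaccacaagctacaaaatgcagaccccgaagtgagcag
Esm1: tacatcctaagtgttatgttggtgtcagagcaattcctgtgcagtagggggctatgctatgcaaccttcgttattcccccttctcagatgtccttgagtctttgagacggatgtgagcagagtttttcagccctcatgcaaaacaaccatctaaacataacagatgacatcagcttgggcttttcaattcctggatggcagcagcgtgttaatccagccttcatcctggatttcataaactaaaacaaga
The ETS match lay 53 bases before the start of *Eng* and 82 bases before that of *Tie1*, and the windows of *Apln* and *Esm1* held none. The promoter table covered 20 of the 40 genes with 26 promoters, of which 6 (23.1%) held the ETS letters on either strand, against 19.7% of 32851 promoters. The SOX letters AACAAT or ATTGTT were in 2 of the 26 (7.69%, against 9.42% of all) and the GATA letters AGATAA or TTATCT in 3 (11.5%, against 9.99%), so none of these letters was much more frequent in the endothelial promoters than in others. None of the motifs contains another, and a match is not a measured binding site.

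In WT mice the low-iodine diet raised nearly the whole set. Of the 40 genes, 35 were higher in WT(LID) than in WT(ND), where 20.9% of all genes tested were higher, and 1, *Esm1*, was lower, where 20.8% were lower. The other 4, *Cldn5*, *Dll4*, *Ets1* and *Lyl1*, did not pass the test. The median log2 fold change over the 40 genes was 1.29, against -0.03 over all genes tested, and 29 of the 35 were over 2-fold up. The share of all genes tested that were over 2-fold up was not counted. For 36 genes every WT(LID) mouse was above every WT(ND) mouse, which was so for 23.7% of all genes. In whole glands, a larger share of endothelial cells and more RNA per endothelial cell cannot be told apart.

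Among junction and surface proteins, 13 of 14 rose. *Pecam1* (Entrez 18613, mm10 chr11:106654213-106715281), the adhesion molecule CD31 of endothelial contacts, stood at 129, 132, 147 and 135 CPM in the WT(ND) mice, listed here and below as replicates 1 to 4, and reached 387, 366, 449 and 424 CPM in the WT(LID) mice. *Cdh5* (Entrez 12562, chr8:104101625-104144502), VE-cadherin of adherens junctions, was at 66.2, 64.2, 75.1 and 74.5 CPM in WT(ND) and at 228, 248, 289 and 262 CPM in WT(LID). No WT(LID) mouse came near the highest WT(ND) mouse for either gene, and the mice within a group lay close together. The log2 fold change was 1.58 for *Pecam1* (SE 0.13, edgeR adjusted p = 2.05e-07) and 1.87 for *Cdh5* (SE 0.16, edgeR adjusted p = 3.37e-07). *Cd93*, a receptor that anchors endothelial cells to the matrix and is high in sprouting vessels, rose most of this group, from 49.0, 54.4, 65.2 and 59.6 CPM to 257, 285, 313 and 273 CPM (log2 fold change 2.31, SE 0.15). None of its LID mice came near the ND mice. *Icam2*, a ligand for leukocyte integrins, rose from 10.4, 9.20, 10.9 and 10.1 CPM to 32.01, 26.7, 32.7 and 32.9 CPM (log2 fold change 1.61), with replicate 2 below the other LID mice. The other rises on the log2 scale ran from 0.90 for *Emcn*, an endomucin of capillaries and veins, to 1.96 for *Ecscr*, a surface regulator of endothelial movement. They included *Adgrl4* (1.65), *Esam* (1.43), *Cd34* (1.33), *Myct1* (1.30), *Clec14a* (1.24), *Podxl* (1.13) and *Mmrn2* (0.95). *Cldn5*, the claudin of tight junctions, was the exception, at 7.41 ± 0.52 CPM in WT(ND) and 7.01 ± 1.2 CPM in WT(LID) with overlapping groups (log2 fold change -0.08, SE 0.21).

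All 9 genes of receptors, signalling and flow rose. *Eng* (Entrez 13805, chr2:32646595-32682669) encodes endoglin, the TGF-beta and BMP9 co-receptor of growing endothelium. Its WT(ND) mice had 101, 97.6, 119 and 119 CPM and its WT(LID) mice 575, 543, 584 and 583 CPM, so that the lowest LID mouse stood far above the highest ND mouse. Its change was 5.23-fold (log2 2.39, SE 0.14, edgeR adjusted p = 9.41e-09). *Nos3*, the endothelial nitric oxide synthase, was at 17.5, 17.4, 16.9 and 19.9 CPM in WT(ND) and at 72.02, 65.8, 69.9 and 66.5 CPM in WT(LID), a 3.82-fold rise with little spread in either group. *Notch4*, the Notch receptor of endothelial cells, rose by a log2 fold change of 1.64 and *S1pr1*, the receptor for sphingosine 1-phosphate that steadies junctions, by 1.59. *Tie1* and *Ptprb*, a receptor and a phosphatase of the angiopoietin system, rose by 1.29 and 1.09. *Rasip1*, needed for vessel lumens, rose by 1.25, *Egfl7*, a secreted matrix protein, by 1.22 and the guidance receptor *Robo4* by 0.92. The gene models of *Eng*, *Nos3*, *Egfl7*, *Cdh5*, *Cd34*, *Lyl1* and *Dll4* overlap another entry of the annotation, and read pairs were counted without strand, so their values can be affected by the neighbour.

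Of the 8 transcription factors, 6 rose. The SOXF factors set endothelial identity with overlapping roles, and all 3 rose: *Sox7* by a log2 fold change of 1.94, *Sox18* by 1.75 and *Sox17* by 1.09. *Sox17* (Entrez 20671, chr1:4490928-4497354), the arterial member, was at 8.27, 7.38, 14.2 and 8.05 CPM in WT(ND) and at 22.1, 20.3, 16.7 and 21.8 CPM in WT(LID), with WT(ND) replicate 3 well above the other ND mice and still below every LID mouse. The ETS factors *Fli1* and *Erg*, which keep endothelial genes on, rose by 1.29 and 1.04, and *Tal1*, a factor shared by blood and endothelium, by 1.24. Its relative *Lyl1* changed by 0.28 (SE 0.17) and did not pass the test. *Ets1* went from 75.0 ± 4.0 to 136 ± 16 CPM without overlap (log2 fold change 0.86, SE 0.44), which was not called in the fit of 16 mice. *Ets1* was at 375 CPM in *Glis3*-Pax8Cre(ND) replicate 4, the mouse with the most *Rag1*, and without that mouse the value was 0.87 and was called.

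All 5 capillary and secreted genes rose. *Plvap* (Entrez 84094, chr8:71497753-71511769) makes the diaphragms of fenestrated capillaries and, per kilobase of exon, had the highest level of the 40 genes in WT(ND), at 101 CPM per kb. Its WT(ND) mice had 175, 171, 254 and 205 CPM and its WT(LID) mice 523, 500, 562 and 543 CPM, again with no overlap (log2 fold change 1.40, SE 0.19). *Aqp1*, the water channel of capillaries and some epithelia, was at 176, 166, 193 and 315 CPM in WT(ND) and at 1023, 969, 1065 and 1019 CPM in WT(LID), and took the first place per kilobase under LID, at 388 CPM per kb (log2 fold change 2.26, SE 0.24). *Gpihbp1*, which holds lipoprotein lipase on capillaries, rose from 11.1, 16.03, 16.7 and 20.9 CPM to 41.6, 40.7, 46.9 and 48.3 CPM (log2 fold change 1.45). *Vwf*, the clotting factor carrier of larger vessels and platelets, rose less, from 46.2, 42.1, 31.0 and 57.5 CPM to 68.9, 81.8, 63.0 and 105 CPM (log2 fold change 0.85). *Ly6c1*, a surface protein of capillary endothelium and some leukocytes with a near-identical neighbour gene, rose from 35.2, 38.1, 44.5 and 47.5 CPM to 78.9, 62.3, 62.4 and 74.4 CPM (log2 fold change 0.75). In all 3 of these genes each LID mouse was above every ND mouse.

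The tip cell genes did not move as a group. *Apln* (Entrez 30878, chrX:48025146-48034853), the apelin peptide made by tip cells, had the largest rise of the 40. Its WT(ND) mice had 5.28, 7.57, 8.82 and 6.55 CPM and its WT(LID) mice 23.4, 32.2, 55.1 and 40.02 CPM, with no overlap although the LID mice were spread widely (log2 fold change 2.42, SE 0.30, edgeR adjusted p = 2.3e-05). *Aplnr*, its receptor on venous and stalk cells, rose only from 29.6, 27.0, 31.9 and 30.6 CPM to 45.2, 37.7, 47.6 and 53.6 CPM (log2 fold change 0.63, SE 0.16). *Dll4*, the Notch ligand of tip cells, had 18.3, 15.9, 20.5 and 24.8 CPM in WT(ND) mice and 19.0, 26.7, 37.2 and 26.5 CPM in WT(LID) mice, with overlapping groups, a log2 fold change of 0.46 (SE 0.24) that did not pass the test. *Esm1* (Entrez 71690, chr13:113209659-113218104), the secreted proteoglycan endocan, was at 87.3, 62.7, 126 and 108 CPM in WT(ND) and at 61.8, 61.7, 67.6 and 58.1 CPM in WT(LID). The lowest ND mouse lay within the range of the LID mice, and the log2 fold change was -0.62 (SE 0.18, edgeR adjusted p = 0.0119). At an adjusted p under 0.01 and over 2-fold, *Esm1* was not called.

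**Figure D1:**
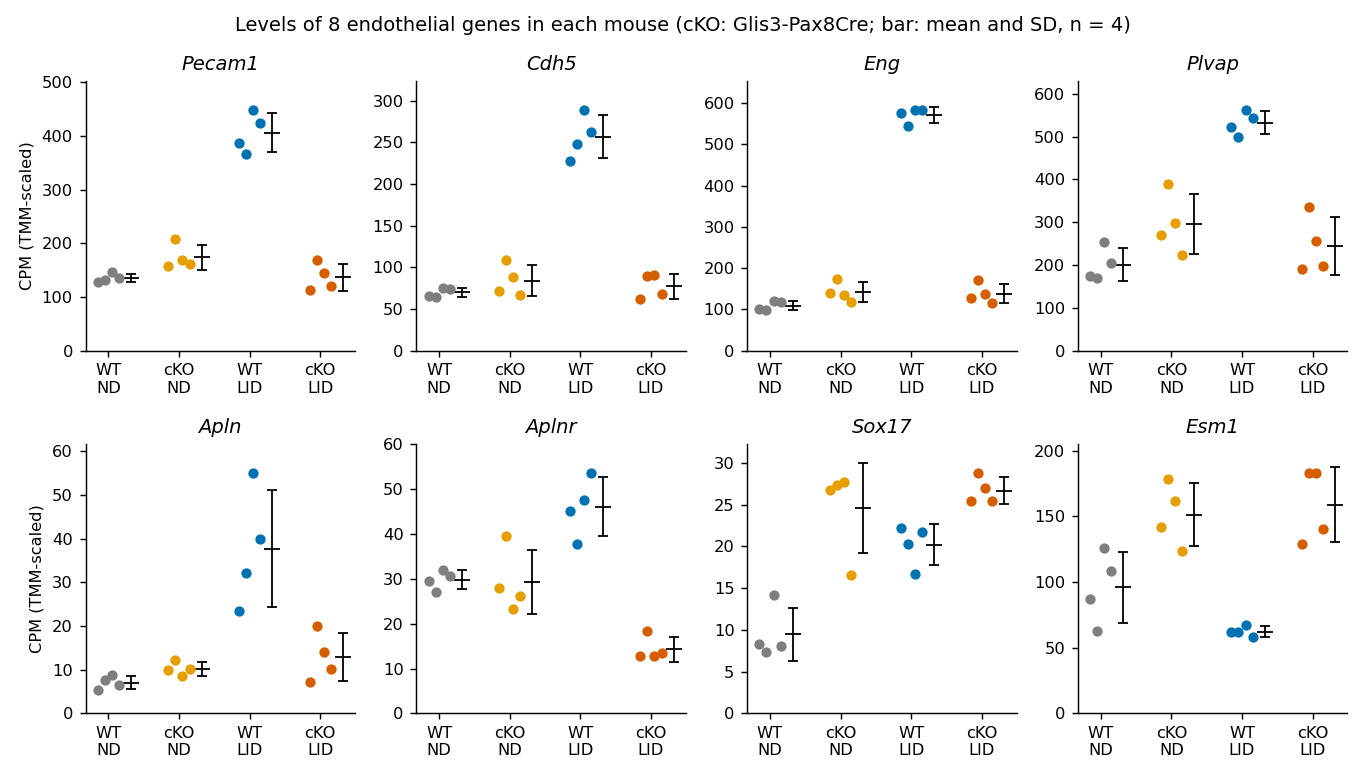
Level of 8 endothelial genes in each mouse, in CPM of the TMM-scaled library on axes that start at 0. Points are mice and bars are mean and SD of 4 mice. *Pecam1*, *Cdh5*, *Eng*, *Plvap* and *Apln* were high in WT(LID) alone, *Aplnr* was lowest in *Glis3*-Pax8Cre(LID), *Sox17* was lowest in WT(ND) and *Esm1* was lowest in WT(LID).

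The genotype comparison under LID ran the other way for most of the same set. Set against WT(LID), 33 of the 40 genes were lower in *Glis3*-Pax8Cre(LID), where 15.4% of all genes tested were lower, and *Esm1* alone was higher, where 14.9% were higher. The median log2 fold change was -1.18, against 0.01 over all genes, and 25 genes were over 2-fold down. The share of all genes over 2-fold down was not counted. For 32 genes every *Glis3*-Pax8Cre(LID) mouse was below every WT(LID) mouse, which was so for 17.9% of all genes. Both comparisons contain the WT(LID) mice, so their values are given side by side and are not independent. The genes that did not pass were *Cldn5* (-0.48), *Emcn* (-0.41), *Egfl7* (-0.32), *Ets1* (-0.68), *Dll4* (-0.40) and *Sox17* (0.40).

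*Eng* was at 128, 171, 138 and 116 CPM in *Glis3*-Pax8Cre(LID) replicates 1 to 4, all under the lowest WT(LID) mouse, a 4.13-fold difference (log2 fold change -2.05, SE 0.13, edgeR adjusted p = 5.05e-08). *Nos3* was at 16.6, 20.5, 19.8 and 13.8 CPM (log2 fold change -1.96, SE 0.13). *Cdh5* was at 61.4, 89.1, 90.4 and 67.5 CPM (log2 fold change -1.73, SE 0.16). None of these values overlapped WT(LID), and those of *Nos3* and *Cdh5* spanned the WT(ND) range. *Pecam1* was at 113, 169, 145 and 120 CPM (log2 fold change -1.57, SE 0.13) and *S1pr1* at 32.04 ± 13 CPM against 106 ± 8.1 CPM in WT(LID) (log2 fold change -1.72). Of the remaining surface and signalling genes, the largest decreases were those of *Adgrl4* (-1.68), *Ecscr* (-1.60), *Cd93* (-1.55) and *Cd34* (-1.498). The smallest called ones were those of *Robo4* (-0.60), *Mmrn2* (-0.65) and *Clec14a* (-0.72).

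Of the transcription factors, *Sox7* (-1.57), *Sox18* (-1.30), *Tal1* (-1.24), *Fli1* (-1.19), *Erg* (-0.67) and *Lyl1* (-0.48) were lower. The call of *Lyl1* (edgeR adjusted p = 0.0405, groups overlapping) failed in 9 of the alternative settings tried, and that of *Robo4* (edgeR adjusted p = 0.021) in 5. *Sox17* was not: it was at 25.4, 28.8, 27.0 and 25.4 CPM in *Glis3*-Pax8Cre(LID), above each WT(LID) mouse, and the difference of 0.40 (SE 0.19) missed the threshold. *Plvap* was at 191, 335, 256 and 197 CPM, below each WT(LID) mouse (log2 fold change -1.12, SE 0.19). *Gpihbp1* was at 11.9, 29.9, 14.8 and 13.96 CPM, with replicate 2 above the others and below WT(LID) (log2 fold change -1.33, SE 0.25). *Vwf*, at 22.2, 26.3, 33.2 and 28.6 CPM, was lower by -1.53 (log2) and *Ly6c1*, at 38.9, 45.4, 29.5 and 29.1 CPM, by -0.96, and neither overlapped WT(LID). *Aqp1* kept a level between the groups, at 532, 498, 511 and 783 CPM in *Glis3*-Pax8Cre(LID), with replicate 4 above the others (log2 fold change -0.81, SE 0.23).

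The apelin pair and endocan again parted. *Aplnr* was at 12.8, 18.4, 12.7 and 13.4 CPM in *Glis3*-Pax8Cre(LID), lower than in any other mouse of the study (log2 fold change -1.69 against WT(LID), SE 0.16, edgeR adjusted p = 2.54e-06). *Apln* was at 7.23, 19.9, 13.996 and 10.2 CPM, with replicate 2 close to the lowest WT(LID) mouse (log2 fold change -1.55, SE 0.30). *Esm1* was at 129, 183, 183 and 140 CPM, each above the highest WT(LID) mouse, a 2.55-fold difference (log2 fold change 1.35, SE 0.18, edgeR adjusted p = 5.45e-05).

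**Figure D2:**
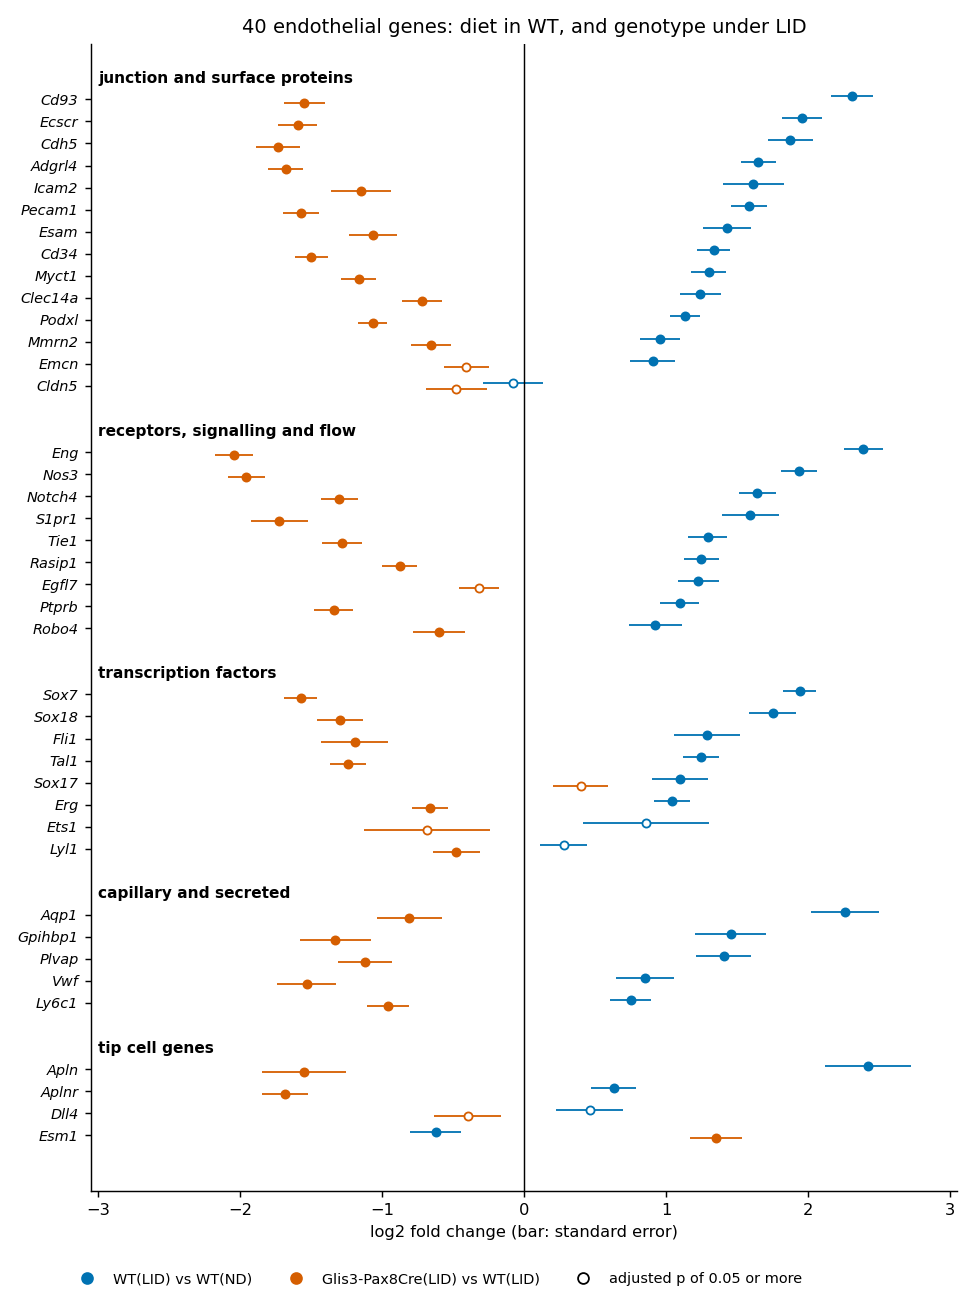
Log2 fold change of each of the 40 genes by role, for the diet in WT mice (blue) and the genotype under LID (orange), with standard errors; open points had an adjusted p of 0.05 or more. Blue points lie to the right for 38 genes and orange points to the left for 38 genes. *Esm1* has the reverse order and the points of *Sox17* both lie to the right. The WT(LID) mice enter both comparisons.

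In *Glis3*-Pax8Cre mice the diet itself moved few of these genes. Comparing *Glis3*-Pax8Cre(LID) with *Glis3*-Pax8Cre(ND), 2 of the 40 were higher, where 13.1% of all genes tested were higher, and 4 were lower, where 12.3% were lower, with a median log2 fold change of -0.08 against -0.03 over all genes. Higher were *Aqp1* (0.92, SE 0.23) and *Egfl7* (0.42, SE 0.14). Lower were *Aplnr* (-1.03, SE 0.16), *Ly6c1* (-0.78, SE 0.15), *S1pr1* (-0.56, SE 0.20) and *Pecam1* (-0.35, SE 0.12). *Aplnr* had been at 28.0, 39.4, 23.2 and 26.2 CPM in *Glis3*-Pax8Cre(ND), each above all 4 *Glis3*-Pax8Cre(LID) mice. Same-numbered mice of these groups varied together in the counts, though the labels state no pairs. With the replicate number as a block, *Egfl7* was no longer called (edgeR adjusted p = 0.0677 over 16 mice and 0.0818 over the 8 *Glis3*-Pax8Cre mice) and the others were. The calls of *Pecam1*, *S1pr1* and *Egfl7* (edgeR adjusted p = 0.0497, 0.0483 and 0.0415) each failed in 14 or more of the alternative settings tried.

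The difference between the diet responses of the genotypes was tested as an interaction. It was called lower for 35 of the 40 genes, where 7.41% of all genes were lower, and higher for 0, where 4.43% were higher, with a median of -1.44. At an unadjusted p under 0.05 the edgeR test had 1 gene higher, *Esm1* (0.69, SE 0.26, edgeR adjusted p = 0.0923), and DESeq2 called 0. All 35 genes that rose in WT mice were among those called, and 32 of them were also lower in the genotype comparison under LID. The interaction contains the diet difference in WT mice, and the WT(LID) mice enter all of these comparisons, so the overlap is not independent. The interaction was -2.42 for *Eng*, -2.15 for *S1pr1*, -2.08 for *Apln*, -2.01 for *Cd93*, -1.999 for *Cdh5*, -1.93 for *Pecam1*, -1.66 for *Aplnr* and -0.98 for *Sox17*. That of *Sox17* (edgeR adjusted p = 0.0314) was lost when any 1 of 12 mice was left out.

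**Figure D3:**
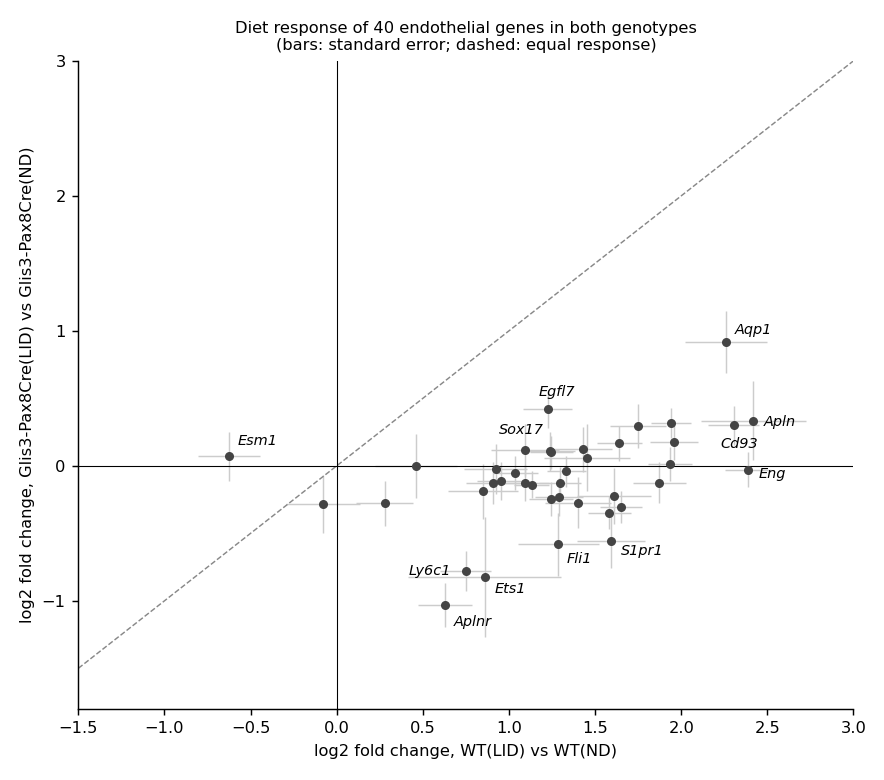
Log2 fold change of each of the 40 genes with the diet in WT mice (x axis) and in *Glis3*-Pax8Cre mice (y axis), with standard errors. The comparisons share no mice. The points lie along the horizontal zero line between 0.42 and -1.03 apart from *Aqp1* at 0.92, and all but *Esm1* are under the dashed line of equal response.

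On the normal diet the genotypes differed less. Of the 40 genes, 8 were higher in *Glis3*-Pax8Cre(ND) than in WT(ND), where 10.3% of all genes tested were higher, and 0 were lower, where 9.25% were lower. At an unadjusted p under 0.05 the edgeR test had 1 gene lower, *Vwf*, and DESeq2 called 0. The median log2 fold change was 0.27, against 0.02 over all genes, and 34 genes were above 0. *Sox17* differed most: its *Glis3*-Pax8Cre(ND) mice had 26.8, 27.3, 27.7 and 16.5 CPM, each above all WT(ND) mice, with replicate 4 lower than the others (log2 fold change 1.38, SE 0.20, edgeR adjusted p = 0.000335). *Esm1* was at 142, 178, 162 and 124 CPM, with replicate 4 within the range of WT(ND) (log2 fold change 0.66, SE 0.18). The others were *Icam2* (0.68), *Emcn* (0.62), *Ly6c1* (0.57), *Egfl7* (0.49), *Cd93* (0.46) and *Erg* (0.43). *Icam2* was at 25.1 CPM in replicate 4 and from 11.7 to 15.7 CPM in replicates 1 to 3, and without replicate 4 its log2 fold change was 0.41 and not called. *Icam2*, *Ets1* (1.00, SE 0.45) and *Fli1* (0.67, SE 0.23) were all highest in that mouse, whose summed level of 8 thymocyte and T cell markers was 2613 CPM against a group median of 13.5 CPM, and whether this RNA raised them was not tested. All 6 macrophage markers were called higher in *Glis3*-Pax8Cre(ND), with a median log2 fold change of 0.71, and their summed level was 274 to 326 CPM against 162 to 240 CPM for WT(ND). Leukocytes can also make *Icam2*, *Ly6c1* and *Cd93*, and the part of macrophages in these 3 differences was not tested. Of the 8 calls, those of *Icam2* and *Cd93* failed in 7 of the alternative settings tried, those of *Egfl7* and *Erg* in 6 and that of *Esm1* in 5. DESeq2 called 14 genes higher and scaling by library size alone 18. Leaving out the 5 mice with *Rag1* left 1, *Sox17*.

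Since most of the 40 genes rose together, each was also set against 5 general endothelial genes of the same mouse, as a log2 ratio to the geometric mean of *Pecam1*, *Cdh5*, *Tie1*, *Esam* and *Clec14a*. This is a description without a test, and a change of ratio can come from either side of it. How often ratios of other genes lay apart between groups was not computed, so the counts below do not single out these genes. In CPM, this geometric mean came to 65.3 ± 5.3 for WT(ND), 80.4 ± 12 for *Glis3*-Pax8Cre(ND), 182 ± 8.5 for WT(LID) and 74.6 ± 9.99 for *Glis3*-Pax8Cre(LID). Of the 35 other genes, the ratio was higher in every WT(LID) mouse than in every WT(ND) mouse for 7, lower for 14 and overlapping for 14. The 7 were *Eng*, *Cd93*, *Apln*, *Aqp1*, *Nos3*, *Ecscr* and *Sox7*. This split depended on the reference: against *Cdh5* alone, which itself rose more than the other 4 reference genes, the ratio was higher without overlap for 2 of the 35, *Eng* and *Cd93*, lower for 23 and overlapping for 10. *Eng* went from between 0.70 and 0.79 in WT(ND) to between 1.62 and 1.68 in WT(LID), and was between 0.79 and 0.95 in *Glis3*-Pax8Cre(LID). *Esm1* went from between 0.07 and 0.83 to between -1.71 and -1.48, the largest relative fall, and was between 0.93 and 1.27 in *Glis3*-Pax8Cre(LID). *Cldn5*, whose level hardly differed, fell relative to the others, from between -3.33 and -2.93 to between -4.95 and -4.50. *Sox17* was between -3.50 and -2.32 in all WT mice and between -2.05 and -1.40 in all *Glis3*-Pax8Cre mice, so that this ratio separated the genotypes on both diets. Between *Glis3*-Pax8Cre(LID) and WT(LID) the ratio was higher without overlap for 12 genes, lower for 5 and overlapping for 18. Against *Cdh5* alone these counts were 18, 0 and 17, so no gene was lower without overlap. The mean ratio to *Cdh5* was still lower, with overlapping groups, for *Eng* (-0.31), *Nos3* (-0.22) and *S1pr1* (-0.05). The fall of *Esm1* and *Cldn5* in WT(LID) and the separation of *Sox17* by genotype were also seen against *Cdh5* alone.

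**Figure D4:**
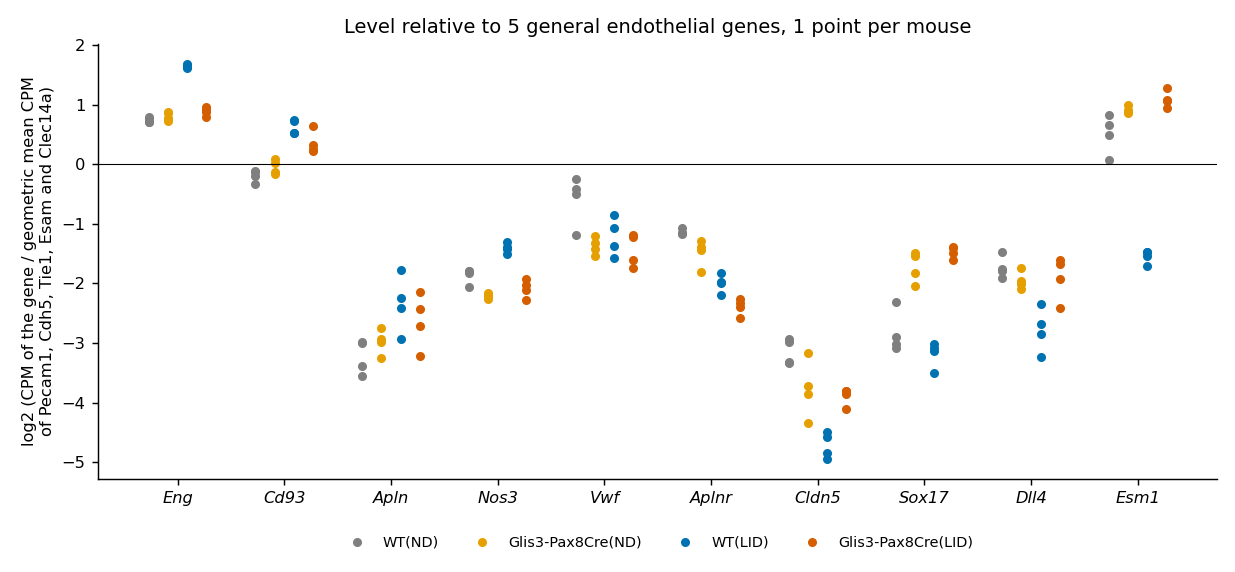
Log2 ratio of 10 genes to the geometric mean CPM of 5 general endothelial genes, 1 point per mouse, colored by group. *Eng* and *Nos3* stand highest in WT(LID), *Esm1* and *Cldn5* lowest in WT(LID), *Aplnr* lowest in *Glis3*-Pax8Cre(LID), and *Sox17* is split by genotype.

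Ligands and receptors that act on these cells were counted from a separate list. Of 14 VEGF and angiopoietin genes, 6 were higher and 1 lower in WT(LID) than in WT(ND), where 20.9% of all genes tested were higher and 20.8% lower. Against WT(LID), 8 were lower and 0 higher in *Glis3*-Pax8Cre(LID), where 15.4% of all genes tested were lower and 14.9% higher. *Vegfa*, the main ligand, was at 1192, 1053, 1274 and 1014 CPM in WT(ND) and at 1624, 1500, 1272 and 1358 CPM in WT(LID), a small rise with overlapping groups (log2 fold change 0.34, SE 0.11). It was at 1112, 895, 912 and 1006 CPM in *Glis3*-Pax8Cre(LID), below each WT(LID) mouse (log2 fold change -0.55, SE 0.11). *Angpt2*, the angiopoietin made by sprouting endothelium, rose from between 5.003 and 6.44 CPM to between 14.2 and 18.7 CPM (log2 fold change 1.57), while *Glis3*-Pax8Cre(LID) mice had between 4.15 and 6.996 CPM (log2 fold change -1.57). The receptors *Flt4*, *Flt1*, *Tek* and *Kdr* rose by 1.52, 1.22, 1.124 and 1.05 in WT mice and were lower by -1.07, -0.91, -1.38 and -0.57 in the genotype comparison under LID. *Vegfb*, a ligand of FLT1, was the 1 that was lower (-0.39).

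**Figure D5:**
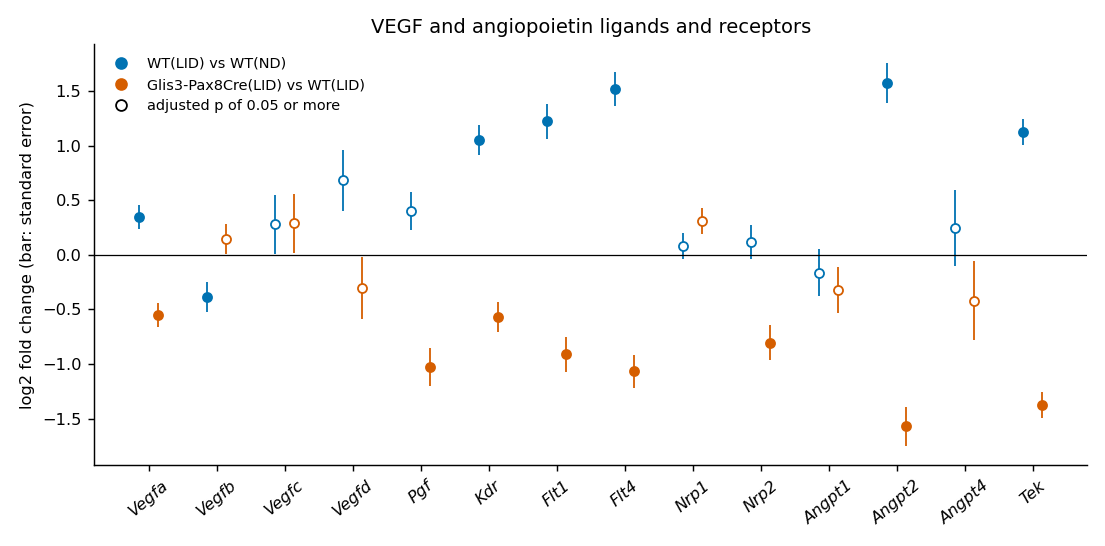
Log2 fold change of 14 VEGF and angiopoietin ligands and receptors with the diet in WT mice (blue) and with the genotype under LID (orange), with standard errors; open points had an adjusted p of 0.05 or more. The receptors and *Angpt2* have the largest values, and *Vegfa* changed by 0.34 and -0.55.

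Of 14 genes listed for tip cells that are not among the 40, 10 rose in WT(LID), led by *Plaur* (3.44), a protease receptor also made by other cells, the basement membrane genes *Col4a1* (2.20) and *Nid2* (1.97), and *Kcne3* (1.90), and 10 were lower in *Glis3*-Pax8Cre(LID) mice. Of 37 further endothelial genes tested, 29 rose and 2 fell in WT(LID), and 28 were lower and 1 higher in *Glis3*-Pax8Cre(LID). Of these, *Ramp3* (2.15), *Gja5* (2.08) and *Heg1* (2.08) rose most. Over all genes tested, 20.9% were higher and 20.8% lower in WT(LID), and 14.9% were higher and 15.4% lower in *Glis3*-Pax8Cre(LID). These shares apply to every count of this paragraph. Markers of pericytes and smooth muscle, the cells that surround vessels, moved only in part the same way. Of 9, 5 rose in WT(LID) and 4 were not called, with values from -0.55 to 2.51, the last for *Acta2*. In the genotype comparison under LID, 5 of these markers were lower and 4 were not called, with values from -2.37 to 0.43. In CPM, their summed level ran from 509 to 665 for WT(ND), from 708 to 920 for *Glis3*-Pax8Cre(ND), from 1073 to 1579 for WT(LID) and from 669 to 874 for *Glis3*-Pax8Cre(LID). Markers of fibroblasts were mixed: the collagens *Col1a1* (1.82) and *Col1a2* (1.55) rose in WT(LID) while *Pdgfra* (-0.86) and *Dcn* (-0.78) fell, and of the 6, *Col1a1* (-1.48) and *Col1a2* (-1.19) were lower in *Glis3*-Pax8Cre(LID). The summed fibroblast level ran from 602 to 827 CPM for WT(ND), from 285 to 584 CPM for *Glis3*-Pax8Cre(ND), from 1119 to 1314 CPM for WT(LID) and from 407 to 726 CPM for *Glis3*-Pax8Cre(LID). Both parathyroid markers fell in WT(LID) (median log2 fold change -1.87), as did 3 of 4 adipocyte markers (median -0.98). The summed parathyroid level was between 3328 and 5839 CPM for WT(ND) and between 792 and 1569.6 CPM for WT(LID). Some of the 40 genes are also made by blood, epithelial or muscle cells. Without 9 of these (*Fli1*, *Ets1*, *Tal1*, *Lyl1*, *Cd34*, *Cd93*, *Ly6c1*, *Podxl* and *Aqp1*), 28 of 31 rose in WT(LID) and 25 of 31 were lower in *Glis3*-Pax8Cre(LID). The 31 were not all limited to endothelium: among others they still held *Vwf*, also made by platelets, and *Icam2*, also made by leukocytes. The part of any of these cells in the values of the 40 genes was not tested.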

How the data were processed

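Thyroid RNA of 16 mice was sequenced by the authors as read pairs, filtered on an average base quality, mapped to mm10 with STAR 2.5 and counted per RefSeq gene with featureCounts 1.5.0-p1 without strand, per their methods and the labels. The deposited values are raw counts, not normalized. The sequencing instrument of each library is not given in the sources used here.

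Counts were fitted in R 4.3.3 with edgeR 4.0.16 (filterByExpr, TMM, robust quasi-likelihood, 1 mean per group), with Benjamini-Hochberg adjustment over 16630 genes. The study's methods used DESeq2, run here (1.42.0) as an alternative. Exon lengths for values per kilobase came from GENCODE models of GRCm38. Promoters came from RefSeq. The fit was tested on simulated data.

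The 40 genes, the lists and the genes given by mouse were chosen with earlier results of these data known. By rule, per-mouse values were given for 11 listed genes and the 3 called genes with the largest change in each comparison. Values for *Ets1* and *Cldn5* were chosen after seeing the data. Within-group library pairs (24) all differed by far more than sampling noise (chi-squared per degree of freedom 34.6 or more).

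Equal replicate numbers were checked for pairing by correlating deviations from group means over genes. The correlations were -0.17 to 0.14 (WT groups), -0.52 to 0.10 (LID groups), -0.37 to -0.03 (ND groups) and 0.21 to 0.65 (*Glis3*-Pax8Cre groups), so the numbers were taken as pairs only in the last. The labels state no pairs, and mice with different numbers were not correlated. Replicate 4 of both *Glis3*-Pax8Cre groups had *Rag1* over 1 CPM, and the part of this RNA in the correlations was not tested.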

Additional observations from a re-analysis of the deposited data

Results flagged for a closer look

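Among 160 sets of 4 values (40 genes in 4 groups), 16 had a mouse far from the other 3 by Dixon's criterion, which chance alone gives for about 1 in 20 sets. *Glis3*-Pax8Cre(ND) replicate 4 was high for *Ets1* (375 CPM) and *Fli1* (26.4 CPM) and low for *Sox17* (16.5 CPM). *Glis3*-Pax8Cre(LID) replicate 4 was high for *Ets1* (110 CPM) and *Aqp1* (783 CPM) and low for *Sox18* (24.6 CPM). Both mice were among the 5 with *Rag1* over 1 CPM. *Glis3*-Pax8Cre(LID) replicate 2 was high for *Aplnr* (18.4 CPM), *Gpihbp1* (29.9 CPM) and *Icam2* (19.5 CPM), and was the highest of its group for 27 of the 40 genes. *Glis3*-Pax8Cre(ND) replicate 2 was high for *Podxl* (265 CPM) and *Vwf* (42.2 CPM), and was the highest of its group for 28 genes. *Clec14a* was high in *Glis3*-Pax8Cre(LID) replicate 1 (92.0 CPM). In WT mice, *Emcn* was high in WT(LID) replicate 3 (170 CPM), *Icam2* low in WT(LID) replicate 2 (26.7 CPM), *Sox17* high in WT(ND) replicate 3 (14.2 CPM) and *Tal1* high in WT(ND) replicate 4 (4.60 CPM).

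The diet response differed between genotypes by the interaction test for 35 of the 40 genes, with values of -1.93 for *Pecam1*, -1.999 for *Cdh5*, -2.42 for *Eng*, -2.08 for *Apln*, -1.66 for *Aplnr*, -0.98 for *Sox17*, -2.01 for *Cd93* and -2.15 for *S1pr1*.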

How the results depend on the processing

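The 35 genes higher in WT(LID) than in WT(ND) numbered 35 or 36 when each mouse was left out, and the 33 lower in the genotype comparison under LID numbered 31 to 36. The 35 of the interaction numbered 32 to 37. Without the 5 mice with *Rag1*, a choice made after seeing the data, these counts were 35, 33 and 30. Scaling by library size alone shifted the median of all genes by -0.16 and 0.15 in these comparisons. *Esm1*, the 1 gene lower in WT(LID), was 0 genes at an adjusted p under 0.01 and over 2-fold and 1 without any mouse. The genes higher in the genotype comparison under LID were 2 with library size alone or only 8 mice, and 1 without any mouse. The genes higher in the interaction were 1 without the *Rag1* mice and 0 to 1 with mice left out. *Cldn5* in WT(LID) against WT(ND) (-0.08) turned to 0.040 without the *Rag1* mice, and ran from -0.18 to 0.023 with mice left out, with the turn at WT(LID) replicate 2.

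The 8 genes higher in *Glis3*-Pax8Cre(ND) than in WT(ND) were 14 by DESeq2, 13 with RLE normalization, 18 with library size alone, 12 with the replicate block, and 1 without the *Rag1* mice or at an adjusted p under 0.01 and over 2-fold. They were 3 to 14 with mice left out: 4 without WT(ND) replicate 1, 3 without WT(ND) replicate 2, 5 without *Glis3*-Pax8Cre(ND) replicate 2, 14 without *Glis3*-Pax8Cre(ND) replicate 4 and 13 without *Glis3*-Pax8Cre(LID) replicate 2. The genes lower were 0 to 1. Of the 2 genes higher with LID in *Glis3*-Pax8Cre mice, 1 was left with library size alone, no filter, only 8 mice, either replicate block or without the *Rag1* mice, and 0 at an adjusted p under 0.01 and over 2-fold. Of the 4 lower genes, 2 were left without *Tg*, with no filter, only 8 mice or without the *Rag1* mice, and 1 at the stricter threshold. With mice left out these were 1 to 3 and 2 to 6. The replicate block changed no other count by over 1.5 times. The cause of these moves was not tested. The lowest count of any endothelial gene of the set in any mouse was 59, and the effect of library depth on the calls was not tested.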

Other observations

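Genes that mark arteries, veins and lymph vessels, outside the 40, did not all move alike. *Gja5*, the connexin of arterial endothelium, lay between 2.03 and 2.32 CPM for WT(ND), between 7.89 and 11.0 CPM for WT(LID) and between 0.92 and 1.45 CPM for *Glis3*-Pax8Cre(LID) (log2 fold change -2.91 against WT(LID)). The arterial Notch target *Hey1* rose in WT(LID) (1.27) while *Hey2* (-0.53, SE 0.26) did not pass the test, and *Hey2* was the 1 further endothelial gene called higher in the genotype comparison under LID (0.75). *Ackr1*, a chemokine receptor of venules, was at 2.03, 3.27, 2.66 and 2.60 CPM in *Glis3*-Pax8Cre(LID), below each *Glis3*-Pax8Cre(ND) mouse at 6.96, 8.31, 6.87 and 5.07 CPM (log2 fold change -1.37, SE 0.17). *Selp*, the P-selectin of venules and platelets, was lower in the same comparison (-0.65), as was *Aplnr* among the 40. Its levels were low and the groups of *Selp* overlapped, spanning 0.94 to 2.27 CPM on ND against 0.96 to 1.19 CPM on LID. Replicate 3 of the ND mice was below every LID mouse for *Selp*. *Emcn* (-0.12) and *Vwf* (-0.19), described above as genes of veins or larger vessels among others, were not called in this comparison.

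Of 6 lymphatic genes tested, *Lyve1* (1.84), *Flt4* (1.52) and *Pdpn* (0.63) rose in WT(LID), where 20.9% of all genes tested rose. *Prox1*, which specifies lymphatic endothelium, was at 4.64 ± 1.1 CPM in WT(ND) and 3.21 ± 0.30 CPM in WT(LID) (-0.53, SE 0.26, not called). *Lyve1* is also made by macrophages and *Pdpn* by fibroblasts. *Stab2*, a scavenger receptor of sinusoidal and lymphatic endothelium, fell in WT(LID) from 0.97 ± 0.13 to 0.33 ± 0.11 CPM (-1.57).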
